A study of Homo sapiens with 9 samples.

Results

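The expression of 10 genes that encode NF-kB subunits and their inhibitors was examined, chosen by gene symbol from the 59050 symbols of the count table. They comprise 5 subunits (NFKB1, NFKB2, REL, RELA and RELB) and 5 genes that restrain or modify them, namely the cytoplasmic inhibitors NFKBIA and NFKBIE, the nuclear IkB proteins NFKBIZ and BCL3, and TNFAIP3, a ubiquitin-editing enzyme that limits signalling to NF-kB. All 10 genes passed the filter on low counts, a CPM (counts scaled to library size) above 1 in 3 or more samples, which 13463 genes met in total. The question of the design was how gene expression of leukemic B cells differs between conventional 2D culture and 3D bioprinted scaffolds over time.

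NF-kB is a family of transcription factors that work as dimers of related subunits. In resting B cells the dimers are held in the cytoplasm by inhibitor proteins of the IkB family, and signals from the B-cell receptor, CD40, Toll-like receptors or the BAFF receptor lead to the degradation of these inhibitors or to the processing of subunit precursors, so that the dimers enter the nucleus. Several genes for subunits and inhibitors are themselves targets of NF-kB, which gives the pathway negative feedback, and the pathway is known as a survival route of CLL cells in lymphoid tissue.

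RNA came from the MEC1 cell line, an established human line from a patient with CLL (Chronic Lymphocytic Leukemia), so that all samples share 1 genetic background. All sample titles begin with MECPGK, and the sources used here do not say what PGK stands for. The 3 groups of 3 samples each were MEC1 in 2D culture, for which no time is stated, cells in bioprinted scaffolds after 7 days (3D_7d) and cells in scaffolds after 14 days (3D_14d). The scaffolds were printed from a cell-laden hydrogel, crosslinked with calcium and kept in the same complete RPMI medium. RNA of the scaffolds was extracted with TRIzol, DNase and then a column, whereas RNA of 2D cells was extracted with the column kit alone, so that culture and extraction cannot be told apart in the comparisons with 2D. No source says whether replicates came from separate cultures, and p-values then measure the spread between these samples, which may be technical.

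The number of reads assigned to genes ranged from 54662799 to 85968686 per sample. In each group, 9 of 10 B-cell markers were above 1 CPM in every sample, and the exception was CD5, a surface antigen that defines CLL cells, at 0.362 ± 0.282 CPM (SD, n = 3) in 2D. The 8 T-cell markers summed to 122 to 155 CPM in 2D, 204 to 243 at day 7 and 214 to 342 at day 14. This sum was carried mostly by the receptor constant genes TRBC1 and TRBC2, whereas CD3D and CD3G had at most 3 counts in every sample. The means of CD3E and CD2 in 2D were 0.765 and 0.410 CPM. The sum of 7 myeloid markers was 1.90 to 2.37 CPM in 2D, 1.18 to 2.72 CPM at day 7 and 3.92 to 5.17 CPM at day 14, with LYZ and S100A8 at no more than 3 counts. The sum of 6 stromal markers was 10.3 to 11.5, 2.36 to 5.33 and 2.68 to 8.91 CPM. The part of other cell types in the results was not tested. Replicate 1 of 3D_14d stood apart: its log2 CPM differed from the other 2 replicates by a root mean square of 0.831 and 0.771 over all tested genes, against 0.588 between those 2 and at most 0.578 within the other groups. Values without it are given for RELA, RELB and TNFAIP3, whereas the day 14 shares, ratios and pathway lists include it.

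The promoters of these genes are shown because NF-kB can act on its own genes. RefSeq windows (build GRCh38.p14) from 250 bases before to 50 bases after the annotated start were found for 8 of the 10 genes, with NFKBIE and RELB missing from the table. The 10-base kappaB consensus was searched on both strands. It was present in 7 of these 8 genes and in 9 of their 13 windows, while 11.3% of 34943 windows of all genes held it. RELA was the gene without a match in its windows. Another NFKB2 window, not shown, held 2 matches, the nearer ending 12 bases before its own start. NFKBIZ, which is not shown, held its nearest match 214 bases before the start. A match describes letters and does not show binding. In the following lines the matched bases are in capitals, overlapping matches are merged, and sequences are written along the strand of the gene.
NFKBIA (chr14:35404801-35404850, minus strand, match ending 72 bases before the start): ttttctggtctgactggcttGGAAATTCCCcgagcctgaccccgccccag
TNFAIP3 (chr6:137867172-137867233, plus strand, 2 matches, the nearer ending 46 bases before the start): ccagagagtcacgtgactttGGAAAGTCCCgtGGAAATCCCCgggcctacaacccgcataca
NFKB2 (chr10:102394451-102394529, plus strand, the most matched of 3 windows, 3 matches of which 2 overlap, the nearest in this window ending 69 bases before its start): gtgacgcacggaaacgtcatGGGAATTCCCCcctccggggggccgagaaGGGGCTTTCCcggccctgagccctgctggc
REL (chr2:60881507-60881557, plus strand, 2 overlapping matches ending 37 bases before the start): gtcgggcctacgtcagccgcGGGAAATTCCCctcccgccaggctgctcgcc
NFKB1 (chr4:102501290-102501339, plus strand, match ending 40 bases before the start): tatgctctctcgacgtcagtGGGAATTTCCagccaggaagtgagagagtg
BCL3 (chr19:44748700-44748729, plus strand, match within the first 12 transcribed bases): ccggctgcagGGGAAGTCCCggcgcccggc

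Of the genes called in the comparisons that follow, NFKBIA, NFKB2, BCL3 and REL held a match, and NFKBIE had no window to search. A link between the matches and the changes in expression was not tested. At day 7, 2 of the 10 genes were up-regulated and 2 down-regulated with respect to 2D, against a background of 22.2% and 21.2% of all tested genes, so that the share of genes called was close to the background in both directions. The split of all calls depended on scaling, as 51.1% of the genes called at day 7 were up-regulated here and 37.6% with total counts alone, and 52.5% and 33.0% at day 14. NFKBIA and NFKB2 rose, and REL and NFKBIE fell. At day 14, 2 genes were up-regulated (NFKBIA and BCL3) and 1 down-regulated (REL), with 19.0% and 17.2% of all genes called. Between the time points, BCL3 was higher and NFKB2 lower at day 14, with 14.5% of all genes called up and 13.6% called down. The median log2 fold change of the 10 genes was 0.13 at day 7 and 0.01 at day 14, beside -0.0039 and 0.02 for all tested genes, and 0.08 between the time points, beside -0.0012. The groups did not overlap for 6 of the 10 genes at day 7 (64.6% of all genes), for 4 at day 14 (49.7%) and for 4 between the time points (39.3%). The 2 comparisons with 2D use the same 2D samples. Without 3D_14d replicate 1, 4 genes were up-regulated at day 14, because RELA (log2 fold change 0.36, adjusted p = 0.0251) and RELB (0.46, adjusted p = 0.0204) then also passed the threshold.

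**Figure D1:**
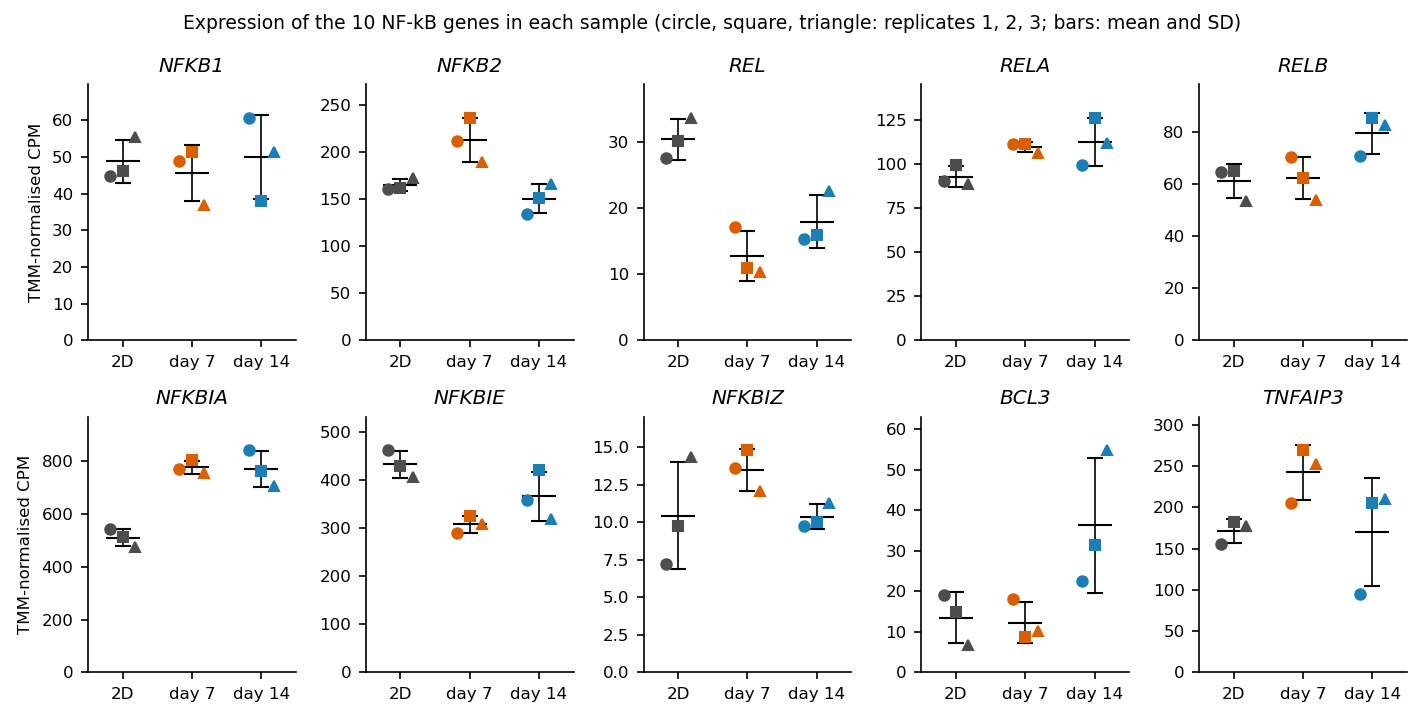
Expression of the 10 genes in TMM-normalised CPM (vertical axes, each from 0), with 1 symbol per sample in 2D, at day 7 and at day 14, and the mean and SD of each group as bars. All 3D samples lie above all 2D samples for NFKBIA and below them for REL, and 3D_14d replicate 1 is the lowest sample for TNFAIP3.

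Levels between genes were compared as RPKM, CPM divided by the exonic length in kilobases. In 2D, NFKBIA had the highest level (269 ± 17.6 RPKM, SD, n = 3), followed by NFKBIE (168 ± 10.9), NFKB2 (43.5 ± 1.62) and TNFAIP3 (36.8 ± 3.07). RELA (27.5 ± 1.73) and RELB (26.8 ± 2.88) overlapped, as did NFKB1 (8.84 ± 1.05) and BCL3 (7.22 ± 3.32), and the lowest pair, REL (2.70 ± 0.273) and NFKBIZ (2.49 ± 0.856), overlapped as well. The order was similar at day 7, when NFKB2 (56.1 ± 6.18) and TNFAIP3 (51.9 ± 7.09) overlapped and RELA (32.5 ± 0.897) lay above RELB (27.3 ± 3.60) in every sample. At day 14 NFKB2, TNFAIP3, RELB and RELA formed 1 overlapping range from 20.3 to 45.0 RPKM. The lowest value was TNFAIP3 in replicate 1, and in the other two replicates TNFAIP3 (43.995 and 44.988 RPKM) lay above every day 14 sample of NFKB2, RELB and RELA. BCL3 (19.3 ± 8.88) lay above NFKB1 (9.05 ± 2.08) in every sample.

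The level of REL is uncertain, since its exons overlap another gene model. On GRCh38, REL spans 60881521 to 60931610 of chromosome 2 on the plus strand, and 50.7% of its 11255 exonic bases belong also to the gene model AC010733.2 on the same strand. All exonic bases of AC010733.2 lie within REL, and it had 0 counts in all 9 samples. No read in the shared exons was assigned to AC010733.2, and whether such reads were assigned to REL or dropped was not tested. If they were dropped, the levels of REL over all 11255 bases are lower limits. Divided by the 5553 bases that REL does not share, its level would be 5.48 ± 0.553 RPKM in 2D. NFKBIZ was at 2.49 ± 0.856 RPKM in 2D, so the overlap of the lowest pair depends on how REL is counted. The other 9 genes share at most 4.58% of their exonic bases with a neighbour.

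REL encodes c-Rel, the subunit most closely tied to lymphocyte activation and proliferation. It had 27.5, 30.1 and 33.6 CPM in the 3 samples in 2D, 17.1, 10.8 and 10.2 CPM at day 7 and 15.3, 15.96 and 22.5 CPM at day 14. Every 3D sample was below every 2D sample, and the time points overlapped. REL fell by 1.26 on the log2 scale by day 7 (standard error 0.227, adjusted p = 0.000857 by the edgeR quasi-likelihood test with Benjamini-Hochberg correction, as for all tests that follow) and dropped by 0.76 relative to 2D by day 14 (standard error 0.225, adjusted p = 0.0187). The decrease at day 7 was called under all 16 alternatives, and that at day 14 under 14. At day 14 the adjusted p was 0.0637 without 2D replicate 3 and 0.0575 without 3D_14d replicate 2. The difference of day 14 from day 7 did not pass the threshold (log2 fold change 0.49, standard error 0.225, adjusted p = 0.118), although the difference passed without 3D_7d replicate 1 (0.77, adjusted p = 0.0243).

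NFKB2, on chromosome 10 from 102394110 to 102402524 (GRCh38, plus strand), encodes the precursor of the subunit that pairs with RelB in the alternative pathway downstream of BAFF receptor, CD40 and lymphotoxin receptor. Its levels were 161, 161 and 172 CPM in 2D, 212, 236 and 189 CPM at day 7 and 134, 151 and 166 CPM at day 14. The samples at day 7 were above all others, while 2D and day 14 overlapped. The increase at day 7 was small (log2 fold change 0.37, standard error 0.138, adjusted p = 0.0475) and was called under 5 of 16 alternatives. It was lost when any 1 of the 2D or 3D_7d samples was left out, with adjusted p from 0.0747 (without 3D_7d replicate 3) to 0.253 (without 3D_7d replicate 2). From day 7 to day 14 NFKB2 fell by 0.50 on the log2 scale (standard error 0.139, adjusted p = 0.0186). This decrease was called under 13 of 16 alternatives and lost without 3D_7d replicate 2, where the log2 fold change was -0.40 (adjusted p = 0.104).

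RELB (chromosome 19, 45001449 to 45038198, plus strand) encodes the partner of the processed NFKB2 product. It had 64.8, 65.2 and 53.6 CPM in 2D, 70.4, 62.6 and 54.0 CPM at day 7 and 70.7, 85.6 and 82.8 CPM at day 14. All samples at day 14 were above all others, and 2D and day 7 overlapped. The log2 fold change at day 14 with respect to 2D, 0.38 (standard error 0.153), did not pass the threshold (adjusted p = 0.0679), and that with respect to day 7, 0.35, did not either (adjusted p = 0.101). Without 3D_14d replicate 1 both passed, at 0.46 (adjusted p = 0.0204) and 0.45 (adjusted p = 0.0319). The Wald test of DESeq2 called the difference from 2D with all samples (adjusted p = 0.043).

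RELA (chromosome 11, 65653597 to 65663090, minus strand) encodes the main transactivating subunit of the canonical pathway. It had 90.3, 99.8 and 89.1 CPM in 2D, 111, 112 and 106 CPM at day 7 and 99.6, 126 and 112 CPM at day 14. The day 7 samples were above the 2D samples, but the log2 fold changes of 0.24 at day 7 (standard error 0.134, adjusted p = 0.168) and 0.28 at day 14 (standard error 0.134, adjusted p = 0.126) did not pass the threshold.

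NFKB1 (chromosome 4, 102501331 to 102617302, plus strand) encodes the precursor of the usual partner of RelA. It had 44.9, 46.1 and 55.4 CPM in 2D, 48.9, 51.3 and 36.8 CPM at day 7 and 60.7, 37.9 and 51.4 CPM at day 14. Its groups overlapped in all comparisons, with log2 fold changes of -0.10 at day 7 and 0.03 at day 14 and a standard error of 0.194 for each.

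**Figure D2:**
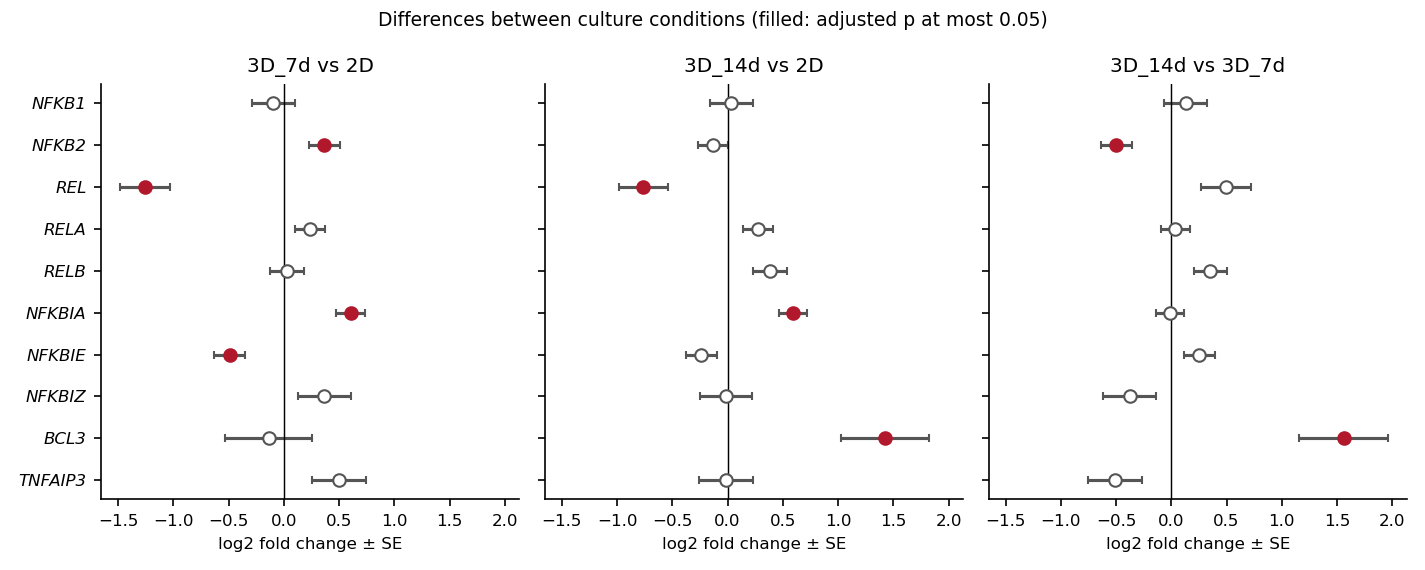
Log2 fold changes of the 10 genes (horizontal axes, points with standard errors) in the 3 comparisons, with filled points for an adjusted p of at most 0.05. REL lies to the left of 0 and NFKBIA to the right in both comparisons with 2D, and BCL3 has the widest standard errors, 0.394 to 0.402.

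NFKBIA (chromosome 14, 35401511 to 35404746, minus strand) encodes IkB-alpha, the inhibitor that is degraded and resynthesised within a single round of signalling. Its levels were 542, 514 and 476 CPM in 2D, 769, 805 and 756 CPM at day 7 and 842, 762 and 705 CPM at day 14. All 6 samples in 3D were above the samples in 2D. By day 7 it had risen by 0.61 on the log2 scale (standard error 0.130, adjusted p = 0.00251), or 1.52 times the level in 2D. By day 14 the rise was 0.59 (standard error 0.130, adjusted p = 0.00376), or 1.51 times. The difference between the time points was -0.01 (standard error 0.129, adjusted p = 0.948). The increase was called under all 16 alternatives at day 7 and under 15 at day 14, where it was lost without a filter on low counts (0.54, adjusted p = 0.0735). Scaling by total counts alone placed the median of all genes at -0.16 at day 7 and at -0.18 by day 14. NFKBIA then had log2 fold changes of 0.45 and 0.38.

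NFKBIE (chromosome 6, 44258166 to 44265788, minus strand) encodes IkB-epsilon, an inhibitor with slower turnover that in B cells restrains dimers containing RelA and c-Rel. Its levels were 462, 429 and 406 CPM in 2D, 291, 325 and 308 CPM at day 7 and 359, 420 and 319 CPM at day 14. At day 7 all samples were below those in 2D, whereas at day 14 replicate 2 lay within the range of 2D. NFKBIE fell by 0.49 on the log2 scale at day 7 (standard error 0.140, adjusted p = 0.0132), a decrease called under 15 of 16 alternatives. At day 14 its log2 fold change was -0.24 (standard error 0.140, adjusted p = 0.197), and -0.45 with total counts alone, which called it down (adjusted p = 0.0131).

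NFKBIA rose and NFKBIE fell at day 7, whereas at day 14 only the rise of NFKBIA was called. The make-up of the cytoplasmic inhibitor transcripts differed between the groups, and the proteins were not measured. The ratio of NFKBIA to NFKBIE in RPKM, which does not depend on the scaling of libraries, was 1.59, 1.63 and 1.59 in 2D, 3.60, 3.37 and 3.34 at day 7 and 3.18, 2.46 and 3.00 at day 14. The ranges of the 3 groups did not overlap. Of the summed RPKM of NFKBIA, NFKBIE and the third cytoplasmic inhibitor NFKBIB, NFKBIA made up 60.1 ± 0.429% (SD, n = 3) in 2D, 74.6 ± 1.09% in 3D_7d and 71.8 ± 1.99% in 3D_14d. NFKBIE took 37.5 ± 0.280%, 21.7 ± 0.573% and 25.1 ± 2.74%. On the log2 scale, NFKBIB was above 2D by 0.89 at day 7 (adjusted p = 0.00565) and by 0.67 at day 14 (adjusted p = 0.029). The sum of the 3 inhibitors was 3.85 to 4.41 times that of the 5 subunits in 2D, 4.10 to 4.78 times at day 7 and 4.11 to 5.58 times at day 14, so that these ranges overlapped.

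Among the subunits, NFKB2 and RELB together made up 64.3 ± 1.07% of the summed RPKM in 2D, 66.5 ± 1.05% in 3D_7d and 62.9 ± 1.47% in 3D_14d. The share of NFKB2 alone was 39.8 ± 1.93% in 2D, 44.8 ± 1.97% in 3D_7d and 33.5 ± 1.503% in 3D_14d, with no overlap between the 3 groups. RELB took 24.5 ± 2.45%, 21.8 ± 1.70% and 29.4 ± 0.959%, so that the NFKB2 and RELB shares shifted against each other from day 7 to day 14. The share of REL was 2.47 ± 0.260% in 2D, 0.900 ± 0.236% in 3D_7d and 1.34 ± 0.237% in 3D_14d. Over the bases that REL does not share, its shares were 4.88 ± 0.500%, 1.81 ± 0.470% and 2.68 ± 0.468%, in the same order of groups.

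**Figure D3:**
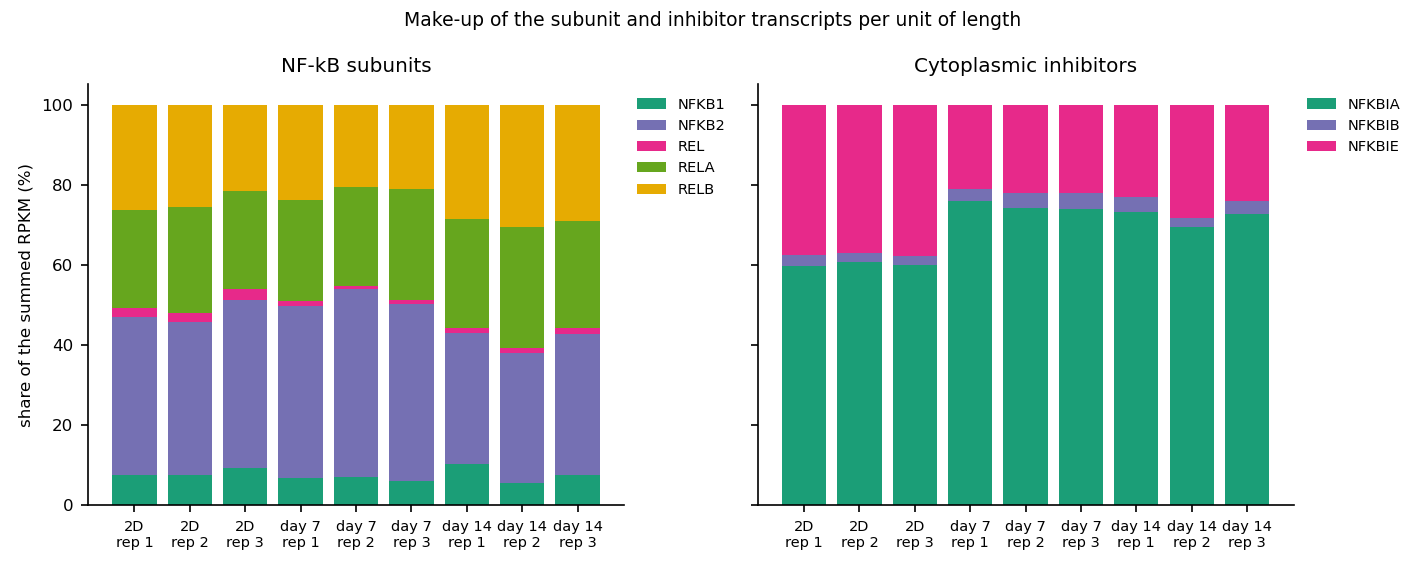
Share of each gene (vertical axes, percent) in the summed RPKM of the 5 subunits and of the 3 cytoplasmic inhibitors, with 1 bar per sample. NFKBIA takes 59.7% to 60.6% of the inhibitor transcripts in 2D and 69.5% to 75.8% in 3D.

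BCL3 (chromosome 19, 44748708 to 44760044, plus strand) encodes a nuclear IkB protein that can turn dimers of the NFKB1 or NFKB2 products into activators. Its levels were 19.1, 14.8 and 6.79 CPM in 2D, 18.03, 8.69 and 10.2 CPM at day 7 and 22.6, 31.4 and 54.9 CPM at day 14. All samples at day 14 were above all others, while 2D and day 7 overlapped, and within each group the highest sample was 2.07 to 2.81 times the lowest. The log2 fold change of BCL3 at day 14 was 1.42 with respect to 2D (standard error 0.399, adjusted p = 0.0146) and 1.56 with respect to day 7 (standard error 0.402, adjusted p = 0.0128). The first was lost without 2D replicate 3 (1.08, adjusted p = 0.0588) and without 3D_14d replicate 3 (1.00, adjusted p = 0.0807). The second was lost without 3D_14d replicate 3 (1.13, adjusted p = 0.0623), 3D_7d replicate 2 (1.38, adjusted p = 0.0563) or 3D_7d replicate 3 (1.47, adjusted p = 0.0505).

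NFKBIZ (chromosome 3, 101827993 to 101861022, plus strand), another nuclear IkB protein, was expressed at a low level, with 7.24, 9.78 and 14.3 CPM in 2D, 13.6, 14.8 and 12.1 CPM at day 7 and 9.76, 10.04 and 11.3 CPM at day 14. The 2D samples overlapped with both other groups, and all day 14 samples lay below the day 7 samples. Its log2 fold changes were 0.37 at day 7 (adjusted p = 0.225), -0.01 for 3D_14d against 2D (adjusted p = 0.975) and -0.38 between the time points (adjusted p = 0.246), each with a standard error of 0.236.

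TNFAIP3 (chromosome 6, 137867259 to 137883312, plus strand) had 155, 182 and 177 CPM in 2D, 205, 269 and 252 CPM at day 7 and 94.97, 205 and 210 CPM at day 14. The day 7 samples were above the 2D samples, and at day 14 replicate 1 was the lowest of all 9 samples while the other two lay above 2D. With all samples, TNFAIP3 differed by 0.50 between day 7 and 2D (standard error 0.244, adjusted p = 0.117). Without 3D_14d replicate 1, which enters the shared estimate of the spread, it was 0.48 with a standard error of 0.122 (adjusted p = 0.00502), and with the 6 samples of the comparison alone it also passed the threshold (0.48, adjusted p = 0.00494). With respect to 2D, the difference at day 14 was -0.01 (adjusted p = 0.97), and 0.28 without replicate 1 (adjusted p = 0.121). Between the time points it was -0.51 (standard error 0.244, adjusted p = 0.134), and -0.21 without that sample (adjusted p = 0.277).

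The similarity of the patterns was described by the root mean square difference of log2 CPM over the 9 samples, after centring each gene on its mean. The genes were not scaled to the same spread, and their root mean square around their own mean ranged from 0.153 for RELA to 0.887 for BCL3. A small difference can therefore come from small spreads alone and does not show a shared pattern, and a large one can come from a large spread. The nearest pair among the 10 genes was RELA and RELB (0.168), followed by NFKBIA and RELA (0.213) and by NFKB2 and NFKBIZ (0.224). TNFAIP3 was nearest to NFKB2 (0.278), NFKBIE to RELB (0.317), NFKB1 to RELB (0.320) and REL to NFKBIE (0.471). BCL3 stood farthest from the rest, with RELB the nearest at 0.692. For each gene, many other tested genes were nearer than any of the 10, from 68 for NFKBIZ to 2258 for NFKBIE.
The 2 nearest of all tested genes were DMAC2L and NUDT3 for NFKB1, IL21R and SLC25A13 for NFKB2, VPS13C and IER2 for REL, TMX4 and MIER2 for RELA, and ANKLE2 and RBPMS2 for RELB. They were ACBD6 and ATG5 for NFKBIA, KRBOX4 and FAM57A for NFKBIE, BIRC6 and EAF1 for NFKBIZ, SH2B2 and PTOV1 for BCL3, and KCTD20 and SMARCD1 for TNFAIP3. Their differences ranged from 0.0555 for TMX4 to 0.309 for PTOV1.

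The genes around the subunits were then examined by role, from lists of gene names chosen with earlier results of these data known. The shares of all tested genes called, 22.2% up and 21.2% down at day 7, 19.0% and 17.2% at day 14, and 14.5% and 13.6% between the time points, are the background for each list, and the median of all genes was -0.0039, 0.02 and -0.0012. Of 10 kinases that activate NF-kB and subunits or adaptors of their complexes, 3 rose and 1 fell by day 7 with respect to 2D, 2 rose and 1 fell by day 14, and 1 was higher and 3 lower at day 14 than at day 7. The 4 of 10 called at day 7 were close to that background. CHUK, the catalytic IKK-alpha kinase needed for processing of the NFKB2 precursor, rose from 16.5 ± 1.68 CPM in 2D to 59.4 ± 14.8 at day 7 (log2 fold change 1.85, standard error 0.217, adjusted p = 4.63e-05) and 32.5 ± 7.39 at day 14 (0.98, adjusted p = 0.00348). MAP3K14, the NIK kinase that activates CHUK, rose from 28.9 ± 1.87 to 60.1 ± 9.21 CPM at day 7 (1.06, adjusted p = 0.000201) and was at 36.7 ± 1.30 CPM at day 14, below day 7 (-0.71, adjusted p = 0.00519). CHUK was also lower at day 14 than at day 7 (-0.87, adjusted p = 0.00987). The canonical kinase IKBKB had a log2 fold change of -0.52 at day 14 with respect to 2D (adjusted p = 0.0186), and was also lower than at day 7 (-0.56, adjusted p = 0.0167). The regulatory subunit IKBKG was above 2D by 0.53 at day 7 (adjusted p = 0.0323) and by 0.51 at day 14 (adjusted p = 0.0415). TAB2, an adaptor of the kinase TAK1, was lower at day 7 (-0.53, adjusted p = 0.0246) and higher at day 14 than at day 7 (0.67, adjusted p = 0.0127).

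Of 15 tested adaptors and ubiquitin ligases, 4 rose and 1 fell in the day 7 scaffolds, while 5 rose and 2 fell in those of day 14. The 5 of 15 called at day 7 were a smaller share than among all genes. RIPK1, a scaffold kinase downstream of TNF receptors, rose by day 7 (1.46, standard error 0.164, adjusted p = 3.54e-05) and stood 1.11 above 2D at day 14 (adjusted p = 0.000313). MYD88, the adaptor of Toll-like receptors, rose from 147 ± 16.2 to 268 ± 11.5 CPM at day 7 (0.87, adjusted p = 0.00131) and was at 229 ± 49.9 CPM at day 14 (0.64, adjusted p = 0.00981). TRADD rose at day 14 (0.93, adjusted p = 0.00145). TRAF5 fell by day 7 (-0.90, adjusted p = 0.00172) and stayed below 2D by day 14 (-0.89, adjusted p = 0.0026), and IRAK4 fell at day 14 (-0.72, adjusted p = 0.0142), with -0.44 at day 7 (adjusted p = 0.0918). Between the time points only TRADD was called among these genes (0.75, adjusted p = 0.00782).

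Of 14 other tested inhibitors of the pathway, the day 7 comparison called 6 higher and 1 lower, and the day 14 comparison 7 higher and 1 lower, with medians of 0.31 and 0.47. Of all tested genes, 22.2% were higher and 21.2% lower at day 7, and 19.0% and 17.2% at day 14, with medians of -0.0039 and 0.02. CYLD, a deubiquitinase that limits IKK activation, rose from 84.6 ± 5.55 CPM in 2D to 191 ± 20.6 at day 7 (1.18, standard error 0.165, adjusted p = 0.000158) and was lower at day 14 than at day 7 (-0.53, adjusted p = 0.0289), though still above 2D (0.65, adjusted p = 0.00835). PDLIM2, which promotes turnover of nuclear RelA, was higher in both kinds of scaffold, by 0.79 (day 7, adjusted p = 0.000876) and 1.02 (day 14, adjusted p = 0.000242). COMMD1 was higher in both as well, by 0.89 (adjusted p = 0.00599) and 1.11 (adjusted p = 0.0021). The exception was NFKBID, a nuclear IkB protein like BCL3, which fell from 83.6 ± 10.5 CPM to 42.3 ± 3.07 in 3D_7d (-0.98, adjusted p = 0.000273) and 46.7 ± 4.88 in 3D_14d (-0.84, adjusted p = 0.00101).

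Of 8 tested receptors that signal to NF-kB, 1 rose and 2 fell by day 7 relative to 2D. By day 14, 2 had risen and 1 had fallen. The 3 of 8 called in each comparison with 2D were near the background. CD27 rose by day 7 (1.01, adjusted p = 0.000403), stood 1.99 above 2D by day 14 (adjusted p = 9.45e-06) and was higher at day 14 than at day 7 (0.97, adjusted p = 0.00142). TNFRSF13C, the BAFF receptor, was at 67.3 ± 3.22 CPM in 2D, 31.8 ± 1.77 at day 7 (-1.08, adjusted p = 0.000112) and 65.6 ± 8.38 at day 14, above day 7 (1.04, adjusted p = 0.000467). CD40 was lower at day 7 (-0.39, adjusted p = 0.0452), with -0.24 at day 14 (adjusted p = 0.204). TNFRSF1B was higher (0.53, adjusted p = 0.0494, with 0.49 and adjusted p = 0.0565 at day 7) and TNFRSF8 lower (-0.96, adjusted p = 0.0102) at day 14 than in 2D, and TNFRSF8 was also lower than at day 7 (-0.77, adjusted p = 0.0375).

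Genes known as targets of NF-kB were the most often called of these lists at day 7, with 14 of 28 tested up-regulated, 5 down-regulated and a median of 0.53 on the log2 scale, beside 22.2%, 21.2% and -0.0039 for all genes. The list includes CCL22, which the paper had named from these same samples, so the counts describe the list and do not test the pathway. At day 14, 11 rose and 4 fell, with a median of 0.29, and 5 were higher and 8 lower at day 14 than at day 7. CCL22, a chemokine that attracts T cells, rose most clearly at day 7 (3.51, standard error 0.299, adjusted p = 6.76e-06). It was lower at day 14 than at day 7 (-2.14, adjusted p = 0.000372), though above 2D (1.38, adjusted p = 0.00222). LTA, which encodes lymphotoxin alpha, rose at both time points (1.73, adjusted p = 1.81e-05, and 1.55, adjusted p = 5.11e-05), and so did its partner LTB, from 85.8 ± 9.46 CPM in 2D to 427 ± 34.4 in 3D_7d (2.32, adjusted p = 3.88e-05) and 639 ± 308 in 3D_14d (2.90, adjusted p = 1.67e-05). TRAF1 rose at day 7 (1.13, adjusted p = 0.000166) and was lower at day 14 than at day 7 (-0.88, adjusted p = 0.0021). Its log2 fold change at day 14 with respect to 2D was 0.25 (adjusted p = 0.232).
The targets did not move as 1 group. BCL2A1, an anti-apoptotic target, fell by day 7 (-1.28, adjusted p = 0.00018). JUNB was below 2D at day 7 (-0.76, adjusted p = 0.000372) and also at day 14 (-0.60, adjusted p = 0.00228), and EBI3 likewise (-0.77, adjusted p = 0.000757, and -0.88, adjusted p = 0.000437). BCL2A1 was higher at day 14 than at day 7 (0.91, adjusted p = 0.00372). The chemokines CCL5 (1.89, adjusted p = 8.68e-05) and CCL4 (1.28, adjusted p = 0.000411) were higher at day 14 than at day 7. With respect to 2D, CCL5 was lower at day 7 (-0.87, adjusted p = 0.0017) and higher at day 14 (1.03, adjusted p = 0.000799). For CCL4 the values were -0.14 (adjusted p = 0.531) and 1.14 (adjusted p = 0.000345). In a bulk sample, fewer cells expressing a gene and less RNA per cell cannot be told apart.

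**Figure D4:**
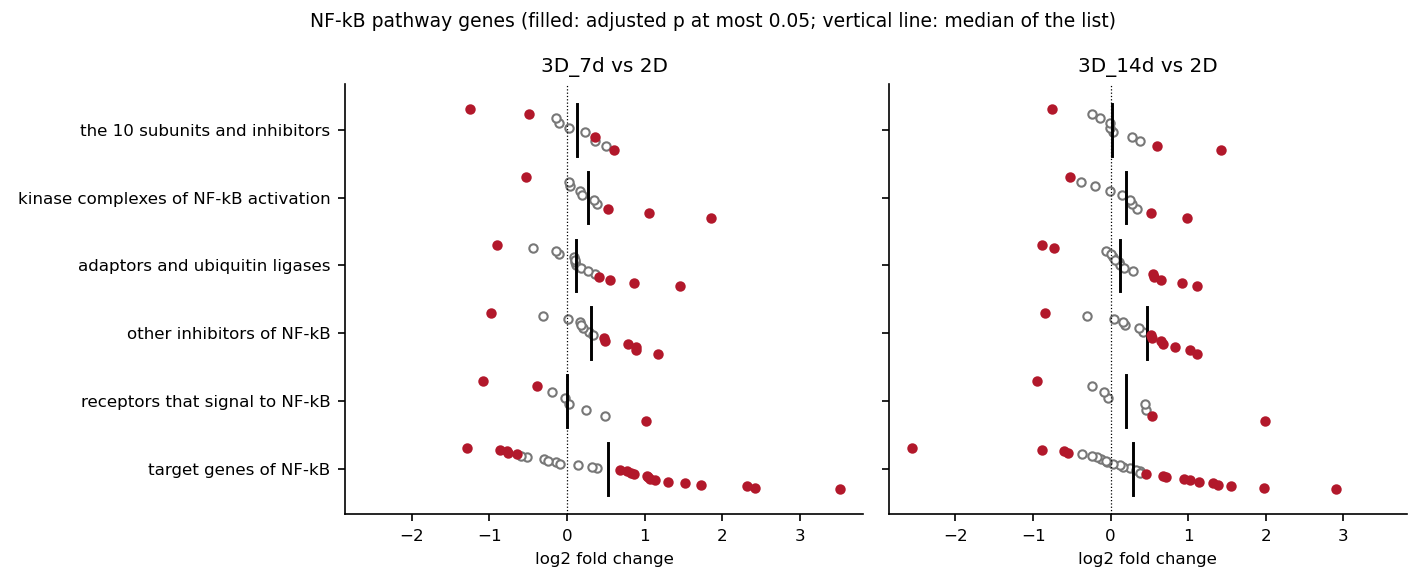
Log2 fold changes with respect to 2D (horizontal axes) at day 7 and day 14 for the 10 genes and for 5 lists of NF-kB pathway genes, 1 point per gene, filled where the adjusted p is at most 0.05, with the median of each list as a vertical line. The targets have the highest median at day 7 (0.53) and the other inhibitors at day 14 (0.47).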

How the data were processed

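RNAseq libraries were made from 2 ng of RNA with a SMART-Seq protocol and sequenced as single reads of 100 nt. Per the submitters' processing notes, the tools were Trimmomatic (0.39), STAR (2.5.3a) and featureCounts (1.6.4), on build GRCh38. The values that the authors deposited are raw counts per gene symbol, without normalization. Strand and multi-mapping settings are not given in the sources used here, so reads of overlapping genes cannot be separated. Genes over 1 CPM in 3 or more samples were tested with edgeR (version 4.0.16, R 4.3.3), using TMM factors, 1 model of the 9 samples and the quasi-likelihood test. The Benjamini-Hochberg method was applied to all 13463 genes, at a threshold of 0.05. Standard errors are the log2 fold change divided by the square root of the F statistic. The alternatives were other scalings, filters and sample sets, a replicate block, DESeq2 (version 1.42.0) and 9 fits without 1 sample. No pair of replicates was a repeat of 1 library, as the chi-square between them was 17.04 or more for each gene on average. The procedure was run on simulated counts in which a small part of the genes changed, evenly up and down and only in 3D_7d. That setting differs from these data, where many more genes were called, so it does not test the scaling used here. The 10 genes, the pathway lists and the tests were chosen with earlier results of these data known. All 10 genes are described, with the 2 smallest p-values per direction in each pathway list and comparison, and the nearest member and 2 nearest tested genes of each.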

Additional observations from a re-analysis of the deposited data

Results flagged for a closer look

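The effects of the 2 time points with respect to the same 2D samples differed for 2 of the 10 genes, by the test of 3D_14d against 3D_7d. Of all tested genes, 14.5% were called up and 13.6% down in that test, so that 2 of 10 was not above the background. NFKB2 was above 2D at day 7, a rise called under only 5 of 16 alternatives, and not at day 14. The difference between the time points was -0.50 on the log2 scale (adjusted p = 0.0186) and was called under 13 of 16. BCL3 was above 2D at day 14, called under 14 of 16 alternatives, and not at day 7. Its difference between the time points was 1.56 (adjusted p = 0.0128), called under 13 of 16. The BCL3 samples at day 14 ranged from 22.6 to 54.9 CPM.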

How the results depend on the processing

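Over the 10 genes, the 3 comparisons and the 16 alternatives, 422 kept their direction and their side of the threshold, 23 lost a call, 10 gained one and 25 changed sign, and the cause was not tested. All sign changes were in log2 fold changes that did not pass the threshold. For RELB at day 7 the log2 fold change was -0.13 with total counts alone, and from -0.10 to 0.0751 when 1 sample was left out. For NFKB1 at day 14 it was -0.18 with total counts alone, -0.026 without a filter and from -0.12 to 0.20 when 1 sample was left out. NFKBIZ at day 14 had 0.0194 with the replicate block. Between the time points, RELA had -0.0061 with total counts alone and -0.014 without a filter, and NFKBIA 0.0007 with the DESeq2 size factors and in the DESeq2 Wald test. When 1 sample was left out, the ranges were -0.54 to 0.15 for BCL3 at day 7, -0.23 to 0.26 for NFKBIZ and -0.19 to 0.28 for TNFAIP3 at day 14, and -0.0158 to 0.30 for NFKB1, -0.054 to 0.13 for RELA and -0.0667 to 0.0458 for NFKBIA between the time points.
At day 7, the 2 genes called up were 1 with the DESeq2 size factors, total counts alone, filterByExpr, no filter or the replicate block, 0 with a minimum absolute log2 fold change of 1, and 1 to 3 when 1 sample was left out. The 2 called down were 1 with no filter and 1 with the minimum fold change. At day 14, the 2 called up were 1 with no filter and 1 with the minimum fold change, and 1 to 4 when 1 sample was left out. The 1 called down was 2 with total counts alone (REL and NFKBIE), 0 with the minimum fold change and 0 to 1 when 1 sample was left out. Between the time points, the 1 called up was 0 to 2 and the 1 called down 0 to 1 when 1 sample was left out. The latter was 0 with only the 6 samples compared, 2 with the replicate block and 0 with the minimum fold change. Over all genes, the minimum fold change left 2755 of 5838, 2172 of 4875 and 1456 of 3785 calls at day 7, at day 14 and between the time points. The last count was 2453 with only the 6 samples compared, and 2282 (without 3D_7d replicate 2) to 4357 (without 3D_14d replicate 2) when 1 sample was left out. With REL taken over its unshared bases, an alternative chosen after seeing the data, NFKB2 and RELB made up 62.7% of subunit transcripts in 2D in place of 64.3%. The replicate numbers were not treated as pairs. Between 2D and 3D_14d, samples of the same number had deviations correlated by 0.0932 to 0.185, and samples of different numbers by -0.135 to 0.0399. In the comparisons with 3D_7d, samples of the same number had -0.09998 to -0.00522. Whether the numbers mark pairs is therefore not settled. The block and the fit without a filter also called TNFAIP3 between the time points (-0.57, adjusted p = 0.0437, and -0.57, adjusted p = 0.0481), and without a filter NFKB2 was lost there (-0.56, adjusted p = 0.0558). Each of the 10 genes had at least 439 counts in every sample.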
